A study of Rattus norvegicus with 16 samples.

Results

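Glomeruli of rats with puromycin aminonucleoside nephrosis that were treated with methylprednisolone were compared with glomeruli of healthy rats. The comparison took all 4 libraries of the treated disease group and all 4 of the healthy group, 8 of the 16 libraries of the study, and covered the 17061 of 36351 genes in the count table that passed a filter on low counts. It asks what still differed from the healthy glomerulus, or differed anew, under the glucocorticoid.

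A glomerulus is a tuft of capillaries whose wall filters blood through fenestrated endothelium, a basement membrane rich in type IV collagen and laminin, and the interlocking foot processes of podocytes, which the slit diaphragm joins. Puromycin aminonucleoside (PAN) is a podocyte toxin that causes foot process effacement and heavy proteinuria in rats, and it serves as a model of nephrotic syndrome. Glucocorticoids, the first treatment of nephrotic syndrome, bind the receptor encoded by Nr3c1, which then switches on genes such as Fkbp5, Tsc22d3, Per1 and the metallothioneins and restrains inflammatory ones. Podocytes, endothelial cells and mesangial cells all carry this receptor.

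PAN+MP rats received 50 mg/kg PAN into the tail vein on day 0 and then 15 mg/kg methylprednisolone into the peritoneum daily. PAN+Pio rats received the same PAN injection and 10 mg/kg pioglitazone, a PPAR gamma agonist, by mouth daily, and PAN rats received PAN and daily vehicle by mouth. Sham rats, the healthy controls, received daily vehicle by mouth. The glomeruli of all 4 groups were isolated on day 11, with 4 rats in each. No group received methylprednisolone without PAN, so disease and drug cannot be told apart in PAN+MP against Sham alone, and the route of the drug differed from that of the vehicle. The sources used here give neither the strain, age and sex of the rats nor the hour of collection.

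The libraries held 22802109 to 32571877 counted reads. The mean total was 30816221 ± 2496952 reads in PAN+MP and 24226865 ± 1227357 reads in Sham (SD, n = 4 each), and every PAN+MP library was larger than every Sham library (exact two-sided permutation p = 0.0286, the smallest this design allows). The levels given here are CPM, the counts of a gene scaled to the size of its library, and the part of the raw depth gap in the results was not tested. As a check of the tissue, the summed level of 6 podocyte markers was 22000 to 26400 CPM in PAN+MP and 18200 to 29500 CPM in Sham, that of 5 proximal tubule markers was 3970 to 4820 CPM in PAN+MP and 2330 to 5080 CPM in Sham, and that of 5 skeletal or cardiac muscle markers was 0.528 to 0.888 CPM in PAN+MP and 0.929 to 1.36 CPM in Sham. Each library carries its group's name and a number for its column order.

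Some libraries stood apart. Fkbp5 was at 22.4, 29.3, 31.1 and 210 CPM in PAN+MP libraries 1 to 4, so that library 4 was the only one of them above the Sham values of 51.4, 84.2, 25.2 and 36.1 CPM. Among Sham libraries, library 4 differed from the others in clock genes and library 1 weighed most on the count of changed genes. A call is an adjusted p under 0.05 in the quasi-likelihood test of edgeR, adjusted by the Benjamini-Hochberg method over all 17061 genes, and all adjusted p-values below come from it unless another tool is named. Of 172 called genes that were named or belonged to a gene list, 74 were called under every alternative that was run, which included leaving out each library in turn. Where leaving out a library ended the call of a gene described here, that library is named with the gene or in its paragraph. Losses under the other settings are counted in the closing section and given here for some genes. In bulk glomeruli, fewer cells of a type and less RNA per cell cannot be told apart.

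In all, 2167 genes (12.7% of those tested) differed between PAN+MP and Sham, 1020 (5.98%) higher and 1147 (6.72%) lower in PAN+MP. The difference was at least 2-fold for 444 genes (2.6%), and the median log2 fold change over all tested genes was 0.01. For 3508 genes (20.6%) the PAN+MP and Sham libraries did not overlap in CPM. The largest increases and decreases below, and the sets defined by the PAN comparisons, were chosen among called genes without overlap. Their separation from Sham was therefore required by the choice and lends them no support. The count depended on single libraries: it was 726 without Sham library 1, 1327 leaving out Sham library 3, 1309 without PAN+MP library 1, 1012 leaving out PAN+MP library 2 and 988 without PAN+MP library 4. With the proximal tubule score as a covariate it was 901, of which 527 were higher and 374 lower. The authors' deposited table called 2813 genes in this comparison, and 1996 of these were called here with the same sign.

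The genes with the largest increases included Camkv, Synpo2l, Ttn and Myom2. The list of sarcomere and striated muscle genes, drawn up with earlier results of these libraries known, holds all of them. Camkv does not encode a part of the sarcomere. Camkv, a calmodulin kinase-like pseudokinase, was at 6.70, 7.56, 4.66 and 4.75 CPM in PAN+MP, against 0.396, 0.221, 0.373 and 0.624 CPM in Sham. Its groups were far apart, with a log2 fold change of 3.85 ± 0.29 (SE, adjusted p = 9.53e-06). Synpo2l, an actin-bundling relative of synaptopodin found at Z-discs, was at 220, 256, 75.0 and 80.5 CPM in PAN+MP, against 14.9, 13.7, 9.13 and 7.41 CPM in Sham. Its PAN+MP libraries fell into a high and a low pair, all above Sham, and the log2 fold change was 3.81 ± 0.40 (adjusted p = 0.000119).

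Ttn, which encodes the giant sarcomere spring titin, was at 126, 192, 135 and 34.7 CPM in PAN+MP, against 18.7, 10.3, 15.9 and 4.48 CPM in Sham. Its log2 fold change was 3.31 ± 0.52 (adjusted p = 0.00226), and PAN+MP library 4 lay lowest of its group. Myom2, a protein of the sarcomere M-band, was at 211, 283, 191 and 160 CPM in PAN+MP, against 31.6, 31.7, 28.2 and 21.9 CPM in Sham, with a log2 fold change of 2.90 ± 0.26 (adjusted p = 1.89e-05). Dusp27, a muscle pseudophosphatase, and Pygm, the muscle form of glycogen phosphorylase, rose by log2 fold changes of 2.74 ± 0.27 and 2.43 ± 0.36. The summed defining markers of skeletal and cardiac muscle, given above, were under 1 CPM in every PAN+MP library.

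Lrtm2, a leucine-rich repeat membrane protein, had the largest log2 fold change of the genes named by the rule, 4.33 ± 0.70 (adjusted p = 0.00249). It was at 1.81, 3.14, 2.22 and 5.38 CPM in PAN+MP, against 0.0881, 0.0442, 0.149 and 0.312 CPM in Sham, so it was nearly silent in healthy glomeruli. Scg2, the secretory granule protein secretogranin II, was at 134, 124, 110 and 132 CPM in PAN+MP, against 21.3, 25.6, 18.9 and 20.03 CPM in Sham, with little spread in either group and a log2 fold change of 2.54 ± 0.21 (adjusted p = 9.75e-06). Col1a1, the main chain of fibrillar type I collagen, was at 158, 77.6, 49.8 and 98.1 CPM in PAN+MP, against 18.5, 10.2, 11.0 and 16.3 CPM in Sham. It rose with a log2 fold change of 2.77 ± 0.57 (adjusted p = 0.0091). The calcium homeostasis modulator family gene Fam26e rose by 2.35 ± 0.30 (adjusted p = 0.000497). The lipid phosphatase-related gene Lppr5 had a log2 fold change of 2.94 ± 0.70 (adjusted p = 0.0165), which was lost without PAN+MP library 2 (adjusted p = 0.0535).

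Among the largest decreases was Magi2, the scaffold under the slit diaphragm whose loss causes nephrotic syndrome in humans. It was at 129, 158, 172 and 113 CPM in PAN+MP, against 645, 623, 419 and 500 CPM in Sham, with a log2 fold change of -1.93 ± 0.21 (adjusted p = 0.000131). The rule that chose it required groups without overlap, and the highest PAN+MP value lay well under the lowest Sham value. Prrt2, a regulator of synaptic vesicle fusion, was at 10.0, 15.4, 11.9 and 6.87 CPM in PAN+MP, against 103, 37.8, 44.5 and 53 CPM in Sham (log2 fold change -2.43 ± 0.38, adjusted p = 0.00196). Grin2c, an NMDA receptor subunit, had the largest fall of the genes named by the rule, with a log2 fold change of -2.59 ± 0.49 (adjusted p = 0.00625), at levels under 4 CPM in every library.

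Cacna1g, a T-type calcium channel, was at 5.36, 4.70, 5.01 and 4.38 CPM in PAN+MP, against 19.1, 15.6, 19.3 and 12.8 CPM in Sham (log2 fold change -1.78 ± 0.20, adjusted p = 0.000193). Mmp15, a membrane-bound matrix metalloproteinase, was at 37.5, 27.3, 26.4 and 15.7 CPM in PAN+MP, against 118, 90.3, 116 and 46.1 CPM in Sham (log2 fold change -1.79 ± 0.28, adjusted p = 0.00197). For both, the rule that chose them required every PAN+MP library to lie under every Sham library. The receptor transporter gene Rtp3, the kinase gene Pak7 and the cyclin gene Ccnjl fell by log2 fold changes of -1.85 ± 0.37, -1.62 ± 0.34 and -1.52 ± 0.25. The other genes named among the largest decreases were less stable. The call of Dnah11 was lost without Sham library 1 or PAN+MP library 1 or 4, that of Alk without Sham library 1 or 3 or PAN+MP library 1, 3 or 4, and that of C17H10orf113 without Sham library 1 or PAN+MP library 1, 2 or 4, with adjusted p-values up to 0.104, 0.0873 and 0.172. All 3 also lost their call with the proximal tubule score as a covariate, with adjusted p-values of 0.0785, 0.107 and 0.125.

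**Figure D1:**
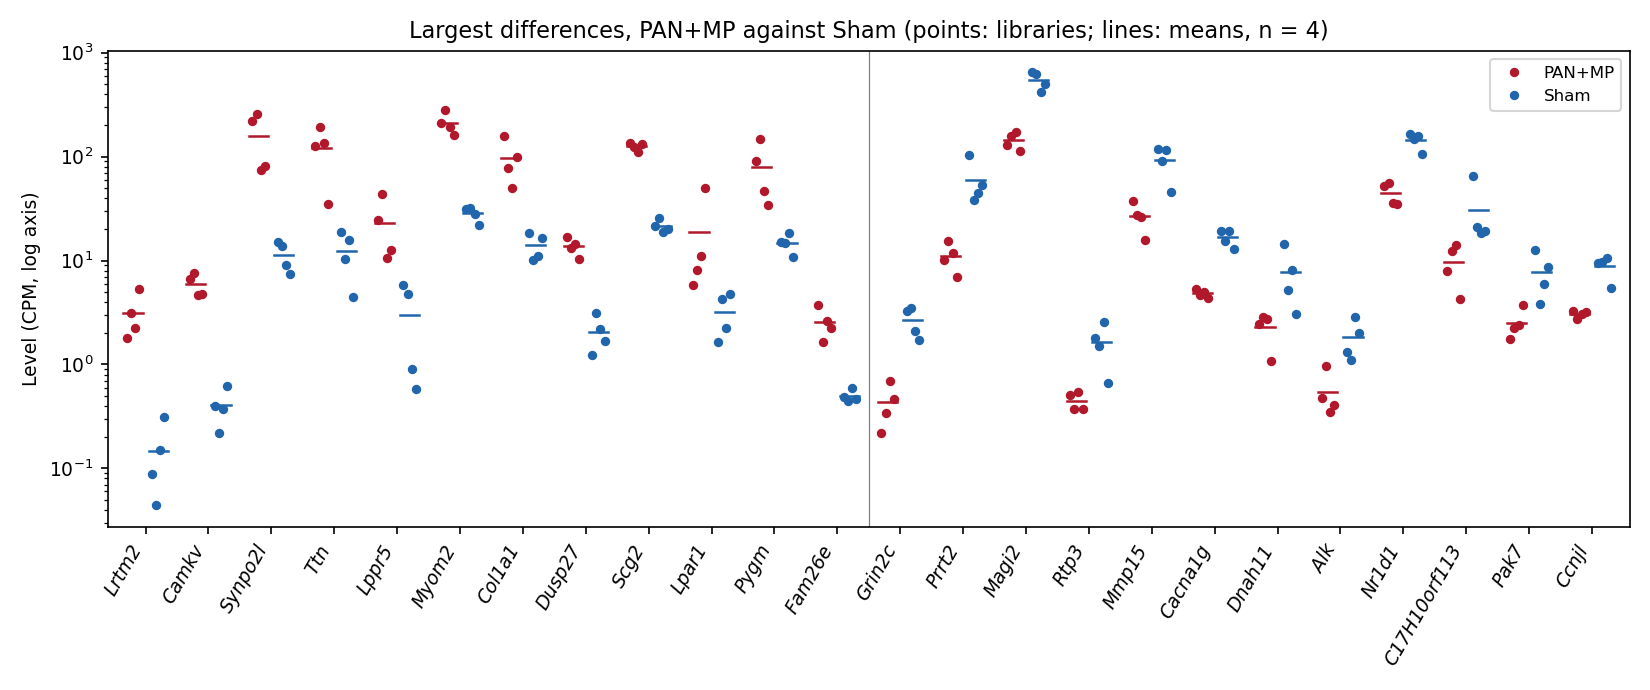
Level in CPM on a log axis of the 12 genes with the largest rise and the 12 with the largest fall in PAN+MP against Sham, among called genes whose libraries did not overlap. Each point is a library and each line the mean of 4. Magi2 averages 143 CPM in PAN+MP and 547 CPM in Sham.

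To place these differences, the same genes were read in the untreated disease group. PAN against Sham had 3231 called genes (18.9%), with 1777 higher (10.4%) and 1454 lower (8.52%) in PAN, and PAN+MP against PAN had 1470 (8.62%). The first count was 2039 without Sham library 1 and 1978 leaving out PAN library 3, and the second was 963 without PAN library 2, 978 leaving out PAN+MP library 2 and 946 without PAN+MP library 3. These comparisons share libraries with PAN+MP against Sham, so their values are set side by side as a description. A first set of genes was called in the same direction in PAN against Sham and not called in PAN+MP against PAN. A missed call does not show that the drug left a gene alone, so the log2 fold change of PAN+MP against PAN is given for each.

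Camkv averaged 5.92 ± 1.44 CPM in PAN+MP and 8.54 ± 0.65 CPM in PAN, against 0.403 ± 0.166 CPM in Sham (SD, n = 4 each), and its log2 fold change of PAN+MP against PAN was -0.53 ± 0.23 (adjusted p = 0.188). Myom2 averaged 211 ± 52.2 CPM in PAN+MP and 273 ± 36.7 CPM in PAN, against 28.3 ± 4.57 CPM in Sham, with -0.37 ± 0.24 (adjusted p = 0.423) against PAN. Scg2 averaged 125 ± 10.9 CPM in PAN+MP and 87.8 ± 23.2 CPM in PAN, against 21.5 ± 2.94 CPM in Sham, so its PAN+MP mean lay above the PAN mean (0.51 ± 0.19, adjusted p = 0.129). For Ttn and Col1a1 the difference from PAN was larger in size but imprecise, at -1.58 ± 0.48 (adjusted p = 0.0528) and -1.16 ± 0.53 (adjusted p = 0.222). Fam19a2, a small secreted protein of the brain, averaged 2.14 ± 0.30 CPM in PAN+MP and 1.31 ± 0.25 CPM in PAN, against 0.475 ± 0.362 CPM in Sham.

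On the lower side, Magi2 averaged 143 ± 26.8 CPM in PAN+MP and 101 ± 28.8 CPM in PAN, against 547 ± 106 CPM in Sham, and PAN+MP differed from PAN by 0.50 ± 0.20 (adjusted p = 0.155). Ptprz1, a receptor tyrosine phosphatase, averaged 19.6 ± 8.03 CPM in PAN+MP and 18.4 ± 6.14 CPM in PAN, against 48.8 ± 9.53 CPM in Sham. Myt1l, a zinc finger factor of neurons, averaged 20.8 ± 4.12 CPM in PAN+MP and 20.2 ± 3.37 CPM in PAN, against 51.5 ± 15.7 CPM in Sham. For these 2 genes the PAN+MP and PAN means lay close together, with log2 fold changes against PAN of 0.09 ± 0.27 and 0.04 ± 0.22. L3mbtl4, which encodes a chromatin reader, fell by -1.38 ± 0.29 against Sham and was 0.89 ± 0.30 higher than in PAN (adjusted p = 0.0774). The anion transporter gene Slc26a10 and Pak7 belonged to the same set, with falls against Sham of -1.29 ± 0.29 and -1.62 ± 0.34.

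Some genes that stood far above Sham were nonetheless lower than in untreated disease. Synpo2l averaged 158 ± 93.5 CPM in PAN+MP and 478 ± 95.6 CPM in PAN, against 11.3 ± 3.60 CPM in Sham, and was lower in PAN+MP than in PAN by -1.60 ± 0.36 (adjusted p = 0.00979). Pygm and Dusp27 were lower than in PAN by -1.84 ± 0.35 (adjusted p = 0.00291) and -1.14 ± 0.24 (adjusted p = 0.0066). Prrt2, low in PAN+MP, was lower still in PAN at 4.31 ± 1.59 CPM, and PAN+MP exceeded PAN by 1.36 ± 0.39 (adjusted p = 0.0374).

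A second set was called in the same direction against both Sham and PAN and not called in PAN against Sham. A missed call in PAN against Sham does not show that a gene was level there, so those log2 fold changes are given too. Lrtm2 averaged 3.14 ± 1.59 CPM in PAN+MP, 0.344 ± 0.260 CPM in PAN+Pio and 0.290 ± 0.202 CPM in PAN, against 0.148 ± 0.117 CPM in Sham. Art3, of the ADP-ribosyltransferase family, averaged 6.80 ± 1.39 CPM in PAN+MP, 1.63 ± 0.74 CPM in PAN+Pio and 1.84 ± 0.91 CPM in PAN, against 1.45 ± 0.53 CPM in Sham. For both, the PAN+MP libraries lay above every library of the other 3 groups. Arg1, the arginase that splits arginine into urea and ornithine, was at 2.97, 6.25, 3.77 and 4.57 CPM in PAN+MP, against 0.837, 0.619, 0.522 and 1.91 CPM in Sham (log2 fold change 2.17 ± 0.49, adjusted p = 0.0134). Il2ra, the alpha chain of the interleukin-2 receptor, was at 3.84, 3.55, 5.71 and 2.67 CPM in PAN+MP, against 0.749, 0.398, 1.38 and 2.14 CPM in Sham (1.74 ± 0.38, adjusted p = 0.0111). Myoz3, a Z-disc protein that binds calcineurin, rose by 1.38 ± 0.21 (adjusted p = 0.00203). In PAN against Sham, Myoz3 had 0.53 ± 0.21 (adjusted p = 0.0944) and Lrtm2 had 0.91 ± 0.81. Art3, Arg1 and Il2ra had 0.34 ± 0.40, 0.37 ± 0.51 and -0.19 ± 0.40 in that comparison.

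The lower genes of this second set included the endothelial receptors Cd93 and Aplnr. Cd93, a receptor on endothelial cells, was at 75.5, 63.5, 66.8 and 99.7 CPM in PAN+MP, against 211, 162, 263 and 109 CPM in Sham (-1.28 ± 0.27, adjusted p = 0.00937). Aplnr, the receptor for apelin on endothelium, was at 74.6, 68.7, 75.7 and 81.7 CPM in PAN+MP, against 143, 120, 271 and 125 CPM in Sham (-1.13 ± 0.23, adjusted p = 0.00869). The gap was narrow for Cd93 in PAN+MP library 4 and Sham library 4 and wider for Aplnr. The rule that chose both genes required groups without overlap. Thbs2, a matrix glycoprotein that restrains angiogenesis, fell by -1.47 ± 0.22 (adjusted p = 0.00146), and Mmp15, Ccnjl, Rtp3 and Grin2c belonged to the same set. In PAN against Sham, Thbs2 had -0.55 ± 0.21 (adjusted p = 0.0861) and Grin2c had -0.86 ± 0.44 (adjusted p = 0.183). Rtp3, Mmp15 and Ccnjl had -0.47 ± 0.35, -0.25 ± 0.27 and -0.06 ± 0.24 there. Aplnr and Cd93 had -0.10 ± 0.23 and 0.12 ± 0.26.

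Both PAN+MP and PAN+Pio rats had received PAN and a drug, and 108 genes (0.633%) differed between them. This comparison uses the same PAN+MP libraries that chose the second set, so its values for that set are given as a description and lend it no support. The log2 fold change of PAN+MP against PAN+Pio was -1.52 ± 0.28 for Mmp15, -1.34 ± 0.25 for Ccnjl, 3.17 ± 0.62 for Lrtm2, 2.06 ± 0.39 for Art3 and -1.26 ± 0.27 for Cd93. For Cacna1g, chosen on PAN+MP against Sham, it was -0.95 ± 0.20. Grin2c was at 0.431 ± 0.205 CPM in PAN+MP and 0.426 ± 0.221 CPM in PAN+Pio. The count of 108 rests on few libraries, since edgeR called 0 genes in this comparison without PAN+MP library 2 or PAN+MP library 3, when 1308 and 1263 genes had an unadjusted p under 0.05. It called 11 without PAN+MP library 4, and 6, 19 and 24 leaving out PAN+Pio libraries 1, 3 and 4, while DESeq2 called 286 with all libraries.

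A further 4 genes of the second set depended on single libraries. The call of Ddc8, lower in PAN+MP, was lost without Sham library 1 or PAN+MP library 1, 3 or 4. Lpar1, a receptor for lysophosphatidic acid, was at 5.83, 8.02, 11.1 and 49.7 CPM in PAN+MP, against 1.63, 4.25, 2.24 and 4.72 CPM in Sham. Gja1, which encodes connexin 43, was at 14.4, 23.7, 32.6 and 97.7 CPM in PAN+MP, against 10.7, 9.86, 6.67 and 13.9 CPM in Sham. Both were highest in PAN+MP library 4, and without it their log2 fold changes were 1.36 (adjusted p = 0.0508) and 1.19 (adjusted p = 0.0608), against 2.54 and 2.03 with all libraries. Their calls were also lost without Sham library 1, at adjusted p = 0.0553 and 0.0525, and with the proximal tubule score as a covariate, at 0.0584 and 0.0591. C1qtnf7, of the C1q and TNF related family, was at 59.97, 70.7, 56.1 and 72.4 CPM in PAN+MP, against 13.8, 18.7, 13.2 and 52.7 CPM in Sham, where library 4 stood apart. Its log2 fold change of 1.40 ± 0.35 became 2.08 without that library, and its call was lost without Sham library 1 (adjusted p = 0.068) or PAN+MP library 4 (adjusted p = 0.0513) and in a fit to the 8 libraries alone (adjusted p = 0.0537).

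**Figure D2:**
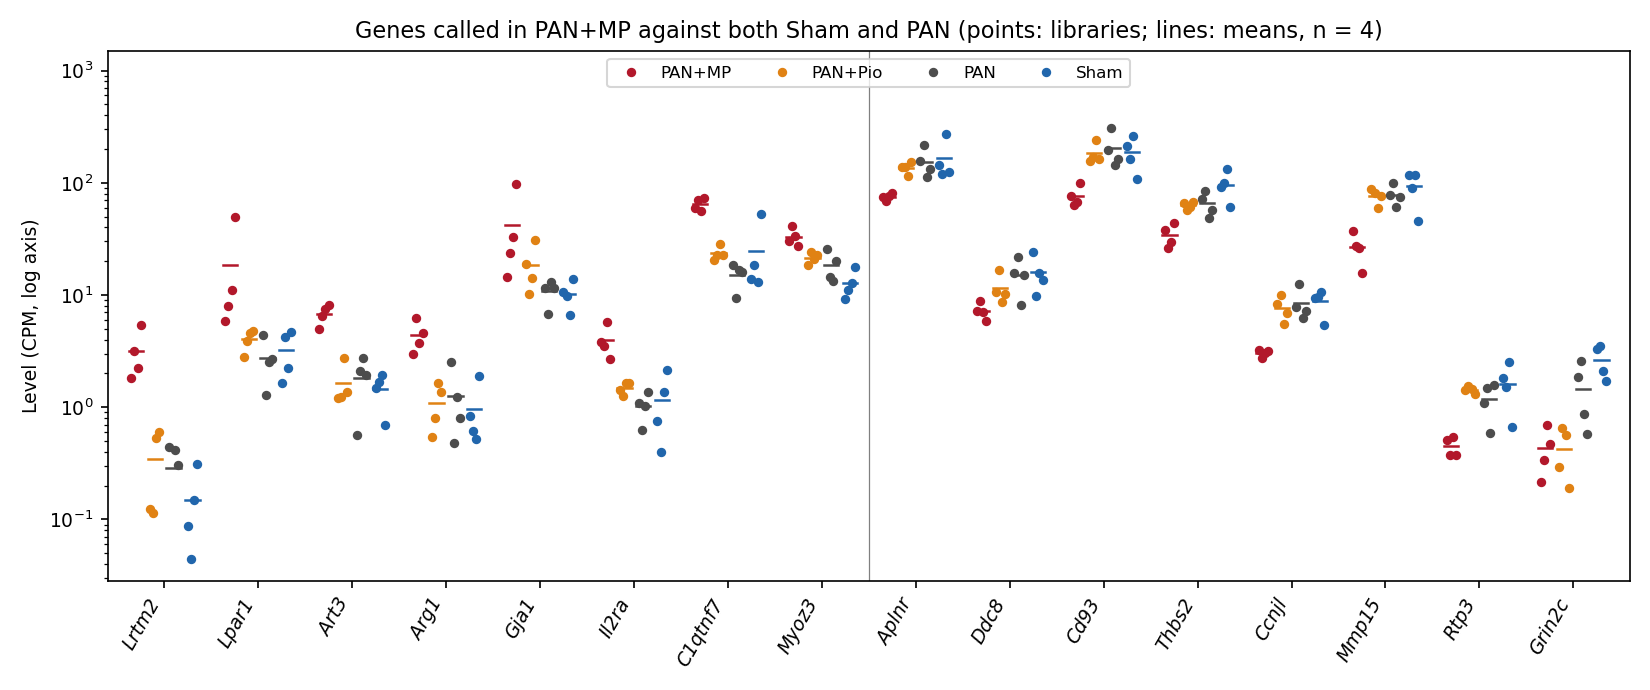
Level in CPM on a log axis, in all 4 groups, of the 8 genes highest and the 8 lowest in PAN+MP against Sham among those also called in the same direction against PAN and not called in PAN against Sham. Points are libraries and lines are means of 4. Lrtm2 averages 3.14 CPM in PAN+MP and 0.344 CPM in PAN+Pio, 0.290 CPM in PAN and 0.148 CPM in Sham. A PAN library at 0 for Lrtm2 is not drawn.

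Of 42 tested classical targets of the glucocorticoid receptor, 5 were called (11.9%, against 12.7% of all genes). The higher ones were Mt1a, Cdkn1c, Cited2 and Fgd4, the lower one was Klf9, and the list's median log2 fold change was 0.23. Fkbp5, which encodes a receptor co-chaperone and is a common readout of glucocorticoid exposure, had a log2 fold change of 0.58 ± 0.58 (adjusted p = 0.528) that became -0.85 (adjusted p = 0.145) without PAN+MP library 4. Tsc22d3, the anti-inflammatory factor GILZ, was at 155, 164, 227 and 342 CPM in PAN+MP, against 175, 197, 96.3 and 278 CPM in Sham (0.25 ± 0.30, adjusted p = 0.602). Per1 averaged 104 ± 46.7 CPM in PAN+MP and 146 ± 99.9 CPM in Sham (adjusted p = 0.492). For all 3 the groups overlapped widely. The sources used here do not give the time between the last injection and the isolation.

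The receptor gene itself, Nr3c1, was at 379, 386, 359 and 357 CPM in PAN+MP, against 367, 424, 399 and 394 CPM in Sham (-0.10 ± 0.07, adjusted p = 0.367), and Hsd11b1, the enzyme that regenerates active glucocorticoid, had 0.67 ± 0.41 (adjusted p = 0.281). Mt1a, a metal-binding metallothionein close in sequence to Mt2A, was the largest rise in the list. It was at 17.4, 30.1, 16.1 and 78.5 CPM in PAN+MP, against 3.96, 10.3, 4.88 and 11.5 CPM in Sham (2.21 ± 0.53, adjusted p = 0.0173). Its call was lost without PAN+MP library 4 (adjusted p = 0.0654) or Sham library 1 (adjusted p = 0.0613). Cdkn1c, the cell cycle inhibitor p57 of mature podocytes, rose by 0.90 ± 0.24 (adjusted p = 0.0262) and by 1.02 ± 0.24 against PAN (adjusted p = 0.0138). It lost its call against Sham without Sham library 1 or 3 or PAN+MP library 2 or 4, with adjusted p-values up to 0.0807, and with the tubule score as a covariate (0.0643). The list had 0 higher members without Sham library 1 or PAN+MP library 4 and 1 without Sham library 3 or PAN+MP library 2. Cited2 lost its call without Sham library 1 or 3 or PAN+MP library 2 or 4, Fgd4 without any library except Sham library 4, and Klf9 without Sham library 1, 2 or 3 or PAN+MP library 1, 2 or 3. The list's lower count was 0 without Sham library 1 or 2 or PAN+MP library 1, 2 or 3, and 3 leaving out Sham library 3 or 4 or PAN+MP library 4.

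The circadian clock is a loop in which the activators Arntl (BMAL1) and Clock drive the repressors Per, Cry and Nr1d1, and Nr1d1 (REV-ERB alpha) represses Arntl through ROR elements. Arntl was at 17.9, 8.30, 11.6 and 11.9 CPM in PAN+MP, against 98.5, 48.5, 45.1 and 10.3 CPM in Sham. Its log2 fold change was -2.03 ± 0.46 (adjusted p = 0.013), and Sham library 4 was as low as PAN+MP. Without Sham library 4 it was -2.38 (adjusted p = 0.00103), and without Sham library 1 it was -1.48 (adjusted p = 0.0528). In the same Sham library 4 the repressors Per1, Per2 and Per3 were the highest of the group, at 285, 170 and 263 CPM.

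The Arntl promoter, listed by RefSeq under Bmal1, is shown because it holds the element named above. Its start region on GRCr8, chr1:176766078-176766377 on the plus strand, covers 250 bases before to 50 after the transcription start, with the match to the ROR element (TNGGTCA, searched on both strands) in capitals.
Arntl: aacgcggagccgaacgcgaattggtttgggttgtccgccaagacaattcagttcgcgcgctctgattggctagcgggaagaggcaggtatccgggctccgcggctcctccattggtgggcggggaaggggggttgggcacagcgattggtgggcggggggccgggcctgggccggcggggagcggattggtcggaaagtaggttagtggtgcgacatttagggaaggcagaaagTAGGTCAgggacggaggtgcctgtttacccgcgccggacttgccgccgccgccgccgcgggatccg
The match begins 16 bases before the start and overlaps none of the other motifs searched. The element was found in 11.1% of 33469 rat promoters of 300 bases and in 1 of the 14 promoters of the clock loop list. The E-box CACGTG was found in 3 of the 14, against 6.42% of all promoters, and the D-box TTATGNAA in 1 of the 14, against 3.66%. The match is a description of the letters only.

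Nr1d1 was at 51.6, 56.1, 35.8 and 34.8 CPM in PAN+MP, against 166, 147, 158 and 107 CPM in Sham. The groups did not overlap, which the rule that chose this gene among the largest decreases required. Its log2 fold change was -1.70 ± 0.47 (adjusted p = 0.0299), and PAN+MP averaged 44.6 ± 10.9 CPM where PAN averaged 22.9 ± 19.2 CPM. The call was lost without Sham library 1 or 3 or any 1 of the 4 PAN+MP libraries, with adjusted p-values up to 0.0818, and at 0.0876 with the tubule score as a covariate. Cry1, a repressor, was at 15.6, 19.1, 21.0 and 27.9 CPM in PAN+MP, against 9.07, 10.4, 4.62 and 12.0 CPM in Sham (1.21 ± 0.35, adjusted p = 0.0343). Its call was lost without Sham library 1 or 3 or PAN+MP library 2, 3 or 4, with adjusted p-values up to 0.102, and at 0.0809 with the tubule score as a covariate. Of 17 tested clock loop genes, 1 was higher and 2 were lower (17.6% called, against 12.7% of all genes). Higher members numbered 0 without Sham library 1 or 3 or PAN+MP library 2, 3 or 4, and 3 leaving out Sham library 4. Lower members numbered 0 without Sham library 1, 1 leaving out Sham library 3 or PAN+MP library 2, 3 or 4, and 4 without Sham library 4. Of 10 clock output genes 2 were higher (Wee1 and Lonrf3, 20% called). This count was 0 without Sham library 1, 2 or 3 or PAN+MP library 2, 3 or 4, 1 leaving out PAN+MP library 1, where Lonrf3 lost its call, and 4 without Sham library 4.

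In PAN+MP against PAN+Pio, 4 of the 17 clock loop genes were higher and 2 lower, against 0.633% of all genes. Arntl averaged 12.4 ± 4.01 CPM in PAN+MP and 70.5 ± 22.1 CPM in PAN+Pio (-2.51 ± 0.46, adjusted p = 0.0268). Per2 averaged 132 ± 17.9 CPM in PAN+MP and 36.9 ± 8.04 CPM in PAN+Pio (1.83 ± 0.31, adjusted p = 0.0187), and Per3 averaged 135 ± 24.9 CPM in PAN+MP and 43.7 ± 14.7 CPM in PAN+Pio (1.63 ± 0.31, adjusted p = 0.0282). Clock was lower (-0.43 ± 0.09, adjusted p = 0.0365) and Cry1 and Cry2 were higher (1.72 ± 0.36 and 0.84 ± 0.14). The output gene Tef, a PAR bZIP factor, was higher by 1.86 ± 0.34 (adjusted p = 0.0252). None of these 6 clock loop genes was called without PAN+MP library 2, 3 or 4 or without PAN+Pio library 1 or 3. Leaving out any 1 of those libraries also left no clock output gene called, Tef included. Of the 6 clock loop genes, 3 were called without PAN+Pio library 2 or 4. With all libraries DESeq2 called 10 clock loop and 5 clock output genes, among 286 over all genes. Whether the rats were killed at the same hour was not tested.

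**Figure D3:**
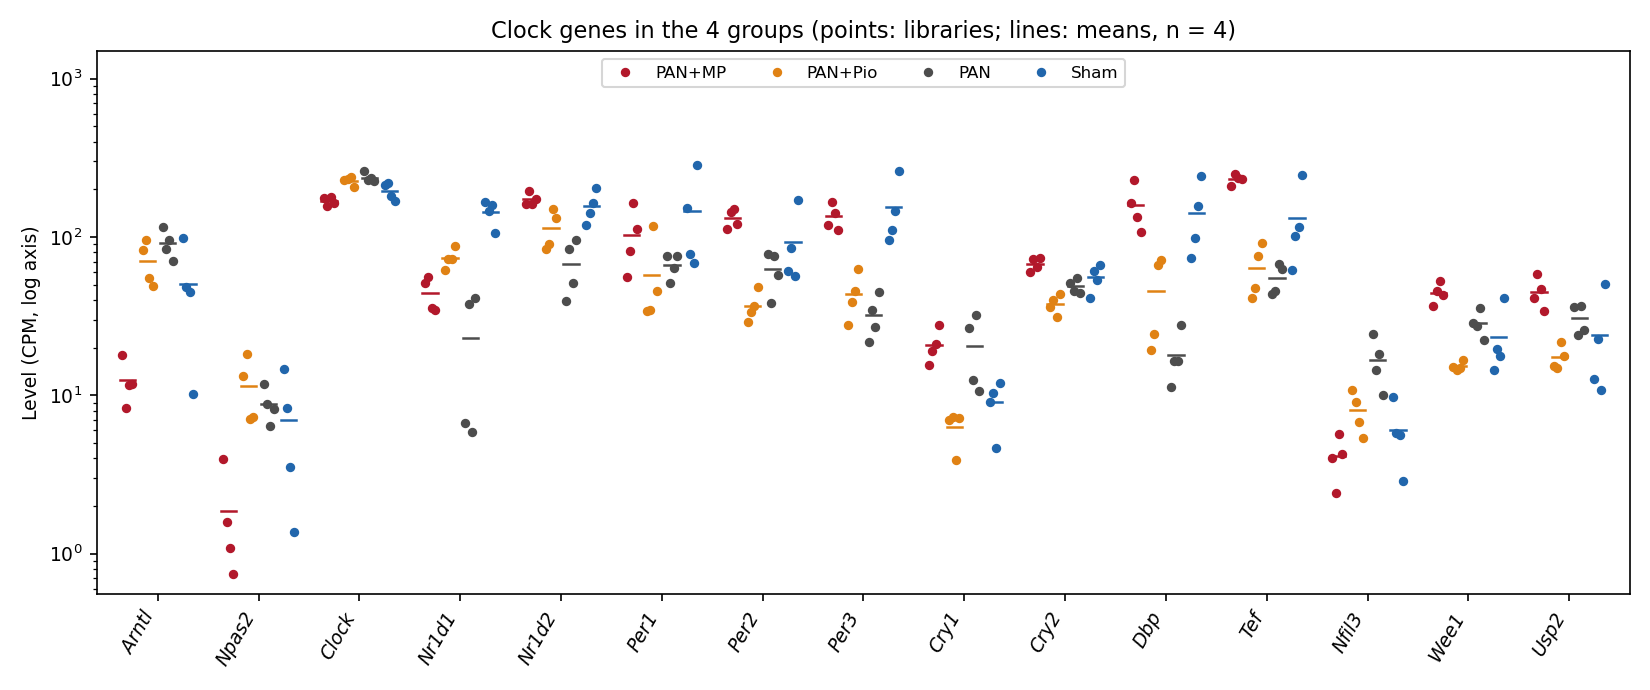
Level in CPM on a log axis of clock loop and clock output genes in all 4 groups. Points are libraries and lines are means of 4. Arntl averages 12.4 CPM in PAN+MP, 70.5 CPM in PAN+Pio, 91.4 CPM in PAN and 50.6 CPM in Sham, where 1 library lies at 10.3 CPM.

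Across 39 gene lists, 32 had at least 1 called member in PAN+MP against Sham (21 without Sham library 1). The lists were drawn up with earlier results of these libraries known. Over all tested genes 12.7% were called, 5.98% higher and 6.72% lower, and the list counts are to be read beside these shares.

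**Figure D4:**
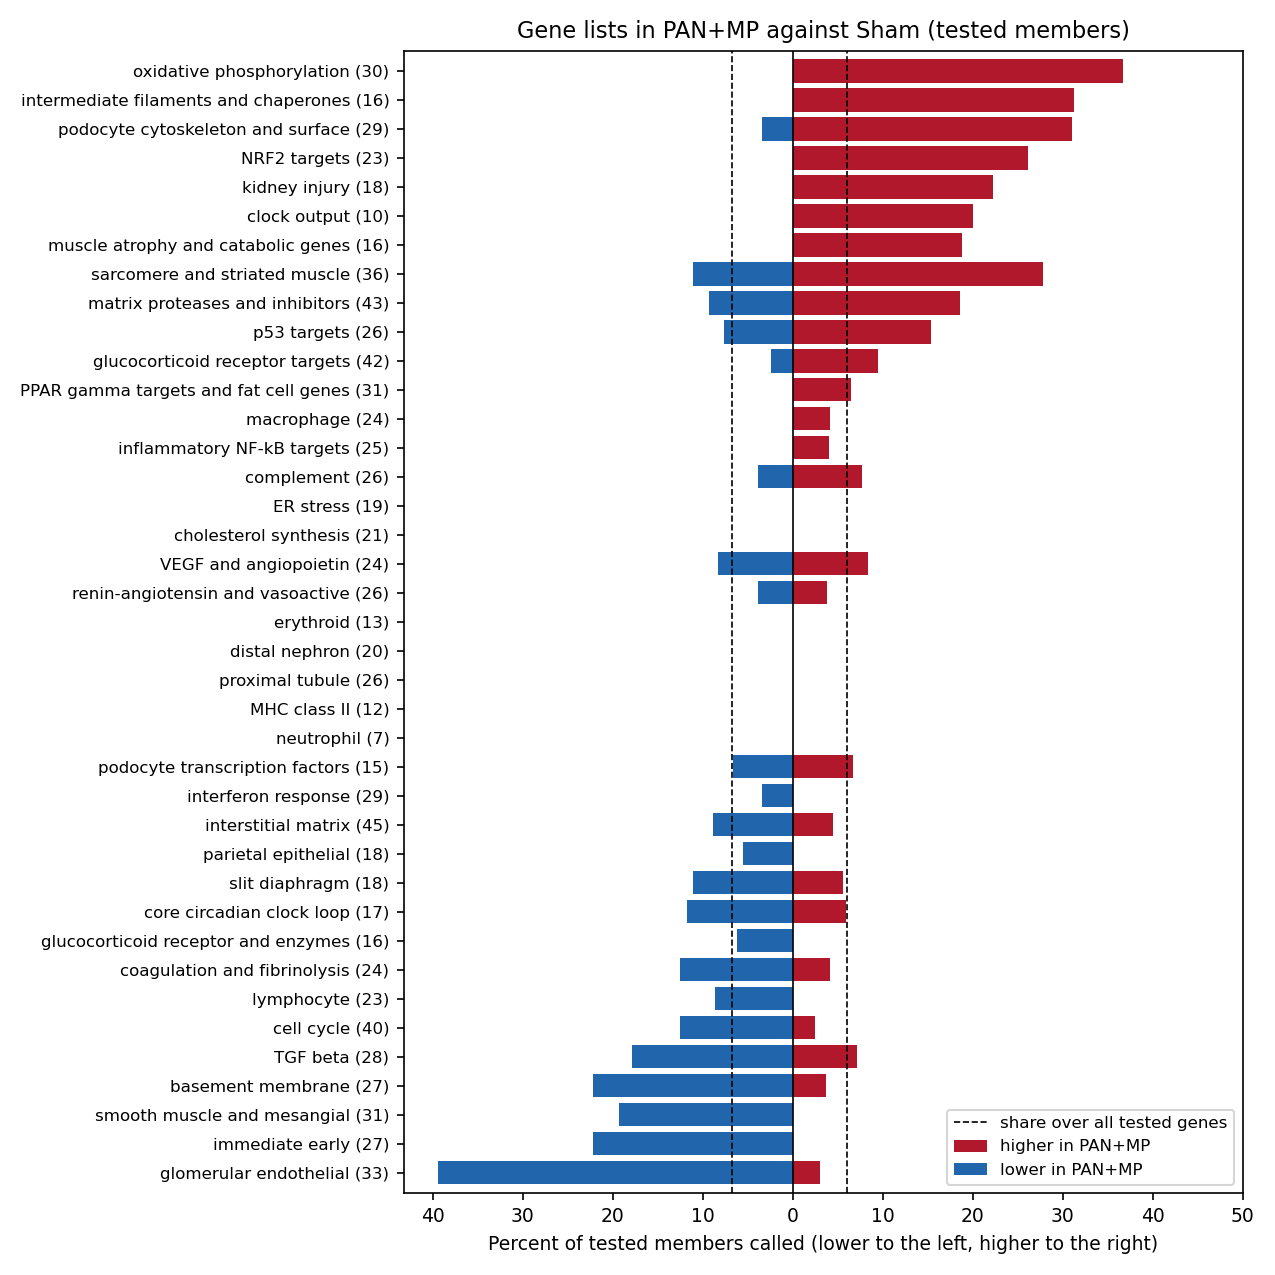
Percent of tested members called higher (right, red) or lower (left, blue) in PAN+MP against Sham for each of 39 gene lists, with the number of tested members in brackets. Dashed lines mark the shares over all tested genes, 5.98% higher and 6.72% lower. Oxidative phosphorylation has 11 of 30 members higher and glomerular endothelium has 13 of 33 lower.

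The slit diaphragm list had a called share near that of all genes. Nphs1, which encodes the slit protein nephrin, was at 3005, 3181, 3126 and 2734 CPM in PAN+MP, against 2640, 3211, 1750 and 2389 CPM in Sham (0.27 ± 0.17, adjusted p = 0.295). The actin-binding Synpo had -0.16 ± 0.15 (adjusted p = 0.495) and the transcription factor gene Wt1 had 0.06 ± 0.17 (adjusted p = 0.835). The groups overlapped for all 3. Of 18 tested slit diaphragm genes, 1 was higher and 2 were lower (16.7% called, against 12.7% of all genes): Cldn5 rose by 0.71 ± 0.21, and Magi2 and the adaptor gene Nck1 fell. Nck1 lost its call without Sham library 1 or 3 or PAN+MP library 2, and Cldn5 without any library except Sham library 2. This left 1 lower without Sham library 1 or 3 or PAN+MP library 2, and 0 higher without any of Sham libraries 1, 3 and 4 or PAN+MP libraries 1, 2 and 4.

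Of 29 tested genes of the podocyte cytoskeleton and surface, 9 were higher and 1 was lower, with a median log2 fold change of 0.27. Enpep, the glutamyl aminopeptidase that degrades angiotensin II on the podocyte surface, was at 1503, 1651, 1509 and 1234 CPM in PAN+MP, against 707, 780, 482 and 676 CPM in Sham (1.16 ± 0.18, adjusted p = 0.00187). Arhgap24, a GTPase-activating protein that restrains Rac1 in podocytes, was at 1714, 1960, 1928 and 1828 CPM in PAN+MP, against 1004, 1132, 766 and 1413 CPM in Sham (0.78 ± 0.17, adjusted p = 0.011). It exceeded PAN by 1.09 ± 0.17 (adjusted p = 0.000546), whereas Enpep was close to its PAN level (-0.21 ± 0.18). Pla2r1, the phospholipase A2 receptor targeted in membranous nephropathy, was at 7.25, 9.05, 11.0 and 7.55 CPM in PAN+MP, against 20.3, 15.4, 27.1 and 11.8 CPM in Sham (-1.10 ± 0.24, adjusted p = 0.011). The number higher was 3 without Sham library 1 or PAN+MP library 4 and 5 leaving out PAN+MP library 1. Of 15 podocyte transcription factor genes, 1 was higher (Foxc1) and 1 was lower (Tead1), or 13.3% called, against 12.7% of all genes. Foxc1 was called neither without Sham library 1 or 3 nor without PAN+MP library 2, 3 or 4, and Tead1 was called only with all libraries or without Sham library 3 or 4. The higher count of these factors was 2 without Sham library 2 or 4.

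Intermediate filaments and small heat shock proteins, some of which podocytes raise under injury, were higher in 5 of 16 cases and lower in 0. Des (desmin) was at 374, 370, 254 and 309 CPM in PAN+MP, against 131, 180, 185 and 129 CPM in Sham (1.06 ± 0.20, adjusted p = 0.00706). In untreated disease Des averaged 919 ± 300.2 CPM, so PAN+MP was lower than PAN by -1.49 ± 0.21 (adjusted p = 0.000178) and still above Sham. Vim (vimentin) was at 1220, 1391, 1209 and 1172 CPM in PAN+MP, against 668, 727, 548 and 894 CPM in Sham (0.81 ± 0.13, adjusted p = 0.00264). It was not called against PAN (0.32 ± 0.13, adjusted p = 0.165). Nes (nestin), an intermediate filament of podocytes, and the small heat shock gene Hspb2 rose by 0.63 ± 0.10 and 0.76 ± 0.10 (adjusted p = 0.00235 and 0.000497). Another small heat shock gene, Cryab, rose by 0.61 ± 0.15 (adjusted p = 0.0173), a call lost without PAN+MP library 2 (adjusted p = 0.0506) and in a fit to the 8 libraries alone (0.0531).

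Of 36 tested genes in the sarcomere and striated muscle list, 10 were higher and 4 were lower, with a median log2 fold change of 0.17. The 10 include Camkv, a pseudokinase that is no part of the sarcomere. Beside Ttn, Synpo2l, Myom2, Camkv, Myoz3 and Des, the higher members included the Z-disc gene Myoz1 at 18.3, 32.8, 20.7 and 16.7 CPM in PAN+MP, against 4.14, 7.39, 3.58 and 6.78 CPM in Sham (2.02 ± 0.26, adjusted p = 0.000476). Slow skeletal troponin I, Tnni1, rose by 0.95 ± 0.21 at levels under 4 CPM. Nebl, which encodes a Z-disc protein also present in podocytes, fell to 171, 168, 184 and 154 CPM in PAN+MP, against 376, 271, 209 and 248 CPM in Sham (-0.71 ± 0.15, adjusted p = 0.0105). The higher count held between 8 and 10 over the libraries left out. The number lower was 2 without Sham library 1 or PAN+MP library 2, and 1 leaving out PAN+MP library 1 or 4 and with the tubule score as a covariate.

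**Figure D5:**
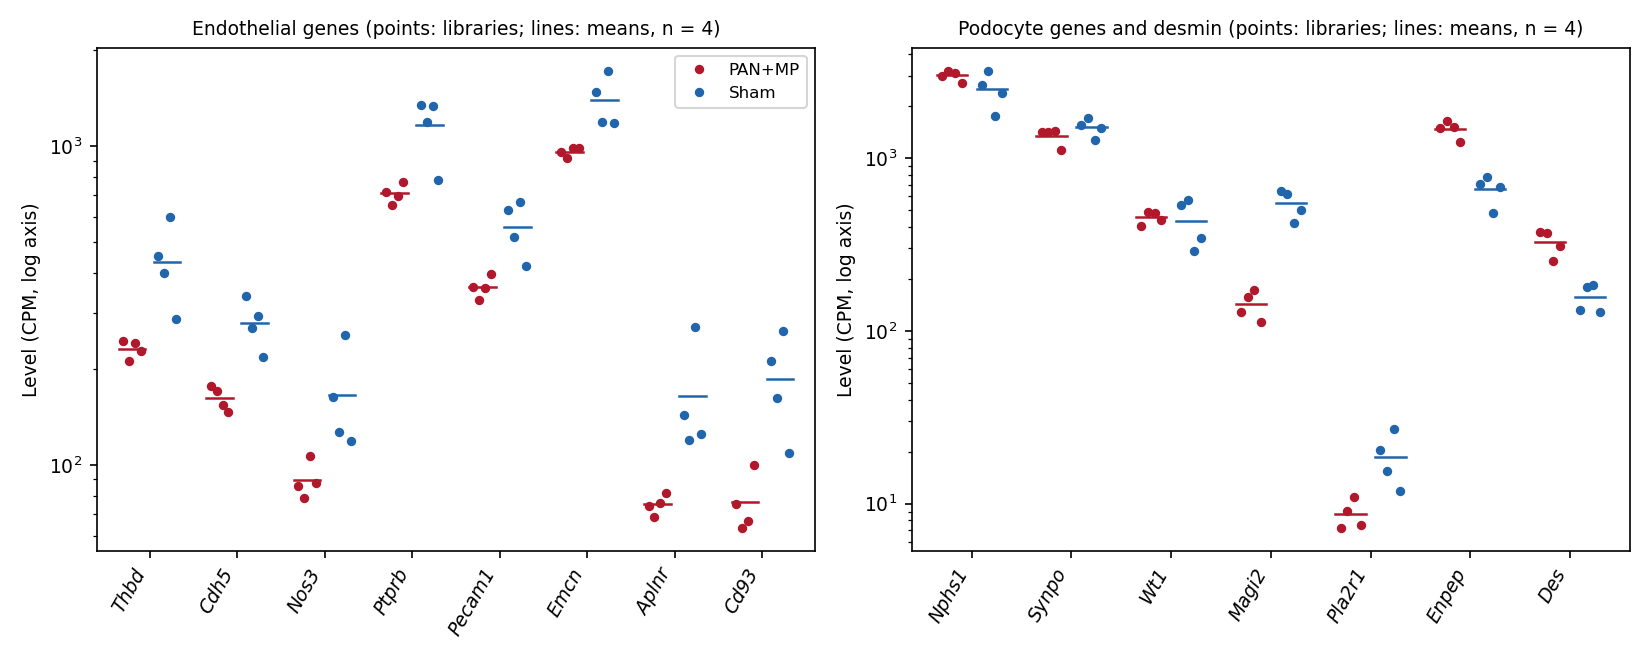
Level in CPM on a log axis of endothelial genes (left) and of podocyte genes and desmin (right) in PAN+MP and Sham. Points are libraries and lines are means of 4. Thbd averages 231 CPM in PAN+MP and 434 CPM in Sham, and Nphs1 averages 3011 CPM in PAN+MP and 2497 CPM in Sham.

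Of 33 tested glomerular endothelial genes, 13 were lower and 1 (Cldn5) was higher, and 24 had an unadjusted p under 0.05, with a median log2 fold change of -0.47. Thbd, the thrombin receptor thrombomodulin that makes the vessel wall anticoagulant, was at 245, 212, 241 and 228 CPM in PAN+MP, against 452, 399, 598 and 286 CPM in Sham (-0.91 ± 0.19, adjusted p = 0.00886). Cdh5, the endothelial adhesion protein VE-cadherin, was at 177, 170, 154 and 147 CPM in PAN+MP, against 338, 269, 294 and 217 CPM in Sham (-0.79 ± 0.16, adjusted p = 0.0092). Both were lower in every PAN+MP library than in any Sham library, and neither was called against PAN (-0.29 ± 0.18 and -0.42 ± 0.16). Nos3, the endothelial nitric oxide synthase, was at 86.1, 78.7, 107 and 88.0 CPM in PAN+MP, against 163, 126, 255 and 119 CPM in Sham (-0.89 ± 0.22, adjusted p = 0.0206). Its call was lost without Sham library 1 (adjusted p = 0.0532), Sham library 3 (0.0532), PAN+MP library 2 (0.0577) or PAN+MP library 4 (0.0514). In that list, the lower count was 2 without Sham library 1, 5 leaving out Sham library 3 and 3 without PAN+MP library 2. It was 4 with the tubule score as a covariate. In PAN against Sham, 14 of the 33 genes were lower and 0 higher (median -0.42), where 8.52% of all genes were lower. In PAN+MP against PAN, 1 was lower and 2 were higher, against 5.31% and 3.31% of all genes.

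The summed level of 5 defining endothelial markers was 3390 to 3510 CPM in PAN+MP and 4090 to 5640 CPM in Sham. The proximal tubule score moved the other way in the mean: the mean log2 level of 26 tubule genes was 7.75 ± 0.37 in PAN+MP and 7.08 ± 0.56 in Sham (SD, n = 4 each). Its part in the endothelial result beyond the covariate count was not tested.

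The called share was 16.7% of 24 tested VEGF and angiopoietin genes and 7.69% of 26 vasoactive genes, against 12.7% of all genes. Adm, which encodes the vasodilator adrenomedullin, was at 148, 186, 162 and 181 CPM in PAN+MP, against 93.9, 126, 70.4 and 75.6 CPM in Sham (0.88 ± 0.16, adjusted p = 0.00565), and it was lower than in PAN (-0.65 ± 0.16, adjusted p = 0.0194). Angptl2, a secreted angiopoietin-like protein of podocytes, was at 566, 640, 556 and 509 CPM in PAN+MP, against 201, 286, 203 and 258 CPM in Sham (1.26 ± 0.13, adjusted p = 0.000119), and it exceeded PAN (0.55 ± 0.13, adjusted p = 0.0134). These 2 and the receptor genes Aplnr and Tie1 made up the 2 higher and 2 lower members of 24 tested VEGF and angiopoietin genes. Tie1 lost its call without Sham library 1 or 3 or PAN+MP library 2 or 4, with adjusted p-values up to 0.0551, and the lower count was 1 without Sham library 1 or 3 or PAN+MP library 2 and 5 leaving out Sham library 4. In the list of vasoactive genes 1 of 26 was higher (Ptger1) and 1 was lower (Nos3). Ptger1 lost its call without Sham library 1, 2 or 3 or PAN+MP library 2 or 4, and without Sham library 4 the counts were 2 higher and 3 lower.

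Pericyte and mesangial genes were lower or not called: of 31 tested smooth muscle and mesangial genes, 0 were higher and 6 were lower (Gata3, Tbx2, Cspg4, Rgs5, Notch3 and Ebf1), with a median of -0.21. Rgs5, a G protein regulator of pericytes, was at 19.5, 18.6, 21.6 and 22.7 CPM in PAN+MP, against 52.4, 54.1, 46.3 and 25.1 CPM in Sham (-1.11 ± 0.25, adjusted p = 0.0135). PAN averaged 38.7 ± 14.3 CPM, and PAN+MP was lower than PAN by -0.91 ± 0.25 (adjusted p = 0.0336). Cspg4, the pericyte proteoglycan NG2, and Tbx2, a mesangial transcription factor, fell by -0.55 ± 0.12 and -0.51 ± 0.12 (adjusted p = 0.00972 and 0.0145). Gata3 lost its call without Sham library 1 or 3 or PAN+MP library 1 or 2, Ebf1 without Sham library 1 or 3 or PAN+MP library 1, 2 or 4, and Notch3 leaving out PAN+MP library 2. Lower members numbered 3 without PAN+MP library 2 and with the tubule score as a covariate. Of 18 parietal epithelial genes, which line Bowman's capsule, only Ncam1 was called, with a fall of -0.50 ± 0.11 (adjusted p = 0.0118).

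In the basement membrane, 6 of 27 tested genes were lower and 1 was higher. Nid2, which encodes the laminin and collagen linker nidogen 2, was at 306, 257, 271 and 245 CPM in PAN+MP, against 534, 446, 589 and 329 CPM in Sham (-0.82 ± 0.16, adjusted p = 0.00726). Lama4, a laminin chain of vessel walls, was at 149, 199, 190 and 192 CPM in PAN+MP, against 348, 243, 401 and 257 CPM in Sham (-0.78 ± 0.16, adjusted p = 0.00958). Frem2, an extracellular matrix protein of epithelial basement membranes, fell by -0.62 ± 0.15 (adjusted p = 0.0171). Lamb2, the laminin chain of the mature filtration barrier, was not called, at 735 ± 56.1 CPM in PAN+MP and 750.0 ± 13.3 CPM in Sham (-0.03 ± 0.09, adjusted p = 0.842).

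Among the collagen IV chains, Col4a1 averaged 809 ± 99.6 CPM in PAN+MP and 1743 ± 437 CPM in PAN, against 1261 ± 294 CPM in Sham, so it was lower than both (-0.64 ± 0.18 against Sham, adjusted p = 0.0317, and -1.11 ± 0.18 against PAN, adjusted p = 0.000853). Its partner Col4a2 had -0.62 ± 0.18 against Sham (adjusted p = 0.0347) and -1.06 ± 0.18 against PAN (adjusted p = 0.00118). Col4a3, a chain of the mature network, averaged 1120 ± 61.0 CPM in PAN+MP and 927 ± 247 CPM in Sham and was not called (0.27 ± 0.17, adjusted p = 0.297), while Col4a4 had 0.53 ± 0.16 (adjusted p = 0.0428). The calls against Sham were fragile: Col4a1 lost its own without Sham library 1 or 3 or PAN+MP library 2, 3 or 4 (adjusted p up to 0.0916), Col4a2 without Sham library 1 or 3 or any PAN+MP library (up to 0.0975), and Col4a4 without any 1 of the libraries except Sham library 2 (up to 0.12). With the tubule score as a covariate Col4a1 and Col4a2 had adjusted p-values of 0.103 and 0.125. The lower count of the list was 3 without Sham library 1 or 3 or PAN+MP library 2, 3 or 4. In that list, the higher count was 0 without any 1 of the libraries except Sham library 2.

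In the interstitial matrix list 2 of 45 were higher and 4 were lower (13.3% called, against 12.7% of all genes), with Col1a1 the largest rise. Ltbp1, which anchors latent TGF beta in the matrix, was at 221, 227, 234 and 245 CPM in PAN+MP, against 512, 407, 472 and 319 CPM in Sham (-0.88 ± 0.18, adjusted p = 0.00856). The fibrillin gene Fbn2 fell by -0.91 ± 0.23 (adjusted p = 0.0229), a call lost without Sham library 3 (0.0626) or PAN+MP library 2 (0.0512) and with the tubule score as a covariate (0.0576). The number lower was 2 without Sham library 3 or PAN+MP library 2 and 7 leaving out Sham library 4, and the higher count was 1 without Sham library 1.

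Proteases and their inhibitors moved in both directions, with 8 of 43 higher and 4 lower. Pcolce, which enhances procollagen processing, was at 616, 497, 454 and 567 CPM in PAN+MP, against 168, 313, 267 and 265 CPM in Sham (1.07 ± 0.21, adjusted p = 0.00726). Adamts14, a procollagen N-proteinase, was at 8.73, 10.8, 7.26 and 7.15 CPM in PAN+MP, against 1.94, 3.32, 2.76 and 1.64 CPM in Sham (1.81 ± 0.31, adjusted p = 0.00375). In PAN it averaged 66.2 ± 22.0 CPM, so PAN+MP was far lower than PAN (-2.96 ± 0.29, adjusted p = 1.21e-05) and not at the Sham level. The inhibitor gene Timp2 and the lysosomal protease gene Ctsd rose by 0.68 ± 0.12 and 0.54 ± 0.11 (adjusted p = 0.00481 and 0.00766).

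Mmp2, the gelatinase that cleaves denatured and type IV collagen, was at 18.3, 14.9, 15.2 and 17.0 CPM in PAN+MP, against 26.3, 27.7, 31.3 and 26.7 CPM in Sham (-0.78 ± 0.15, adjusted p = 0.00658). PAN averaged 39.6 ± 9.03 CPM, which put PAN+MP below both groups (-1.28 ± 0.15 against PAN, adjusted p = 3.33e-05). The aggrecanase gene Adamts5 was likewise lower than in Sham (-0.50 ± 0.12, adjusted p = 0.0165) and in PAN (-0.61 ± 0.12, adjusted p = 0.00385). Higher members numbered 4 without Sham library 1 or PAN+MP library 4 and 5 with the tubule score as a covariate, and the lower count was 7 leaving out Sham library 4.

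Of 28 tested TGF beta genes 2 were higher and 5 were lower. Bambi, a decoy receptor that dampens TGF beta signalling, was at 264, 256, 233 and 251 CPM in PAN+MP, against 143, 186, 132 and 151 CPM in Sham (0.71 ± 0.11, adjusted p = 0.00139). The ligand genes Tgfb3 and Bmp4 fell by -0.68 ± 0.17 and -1.11 ± 0.27 (adjusted p = 0.0218 and 0.0186). Tgfb3 lost its call without PAN+MP library 2 (0.0526) or 4 (0.0633) and with the tubule score as a covariate (0.0522), and Bmp4 without PAN+MP library 1 (0.0502) or 2 (0.0568) and in a fit to the 8 libraries alone (0.0564). In that list, the lower count was 3 without Sham library 1, 2 leaving out PAN+MP library 2 or 4, and 8 without Sham library 4. The number higher was 1 without any 1 of the 8 libraries except PAN+MP library 4.

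Of 40 tested cell cycle genes, 5 were lower and 1 was higher (Rrm2), or 15% called, against 12.7% of all genes. The median log2 fold change was -0.40. DESeq2 called 12 lower. Against untreated disease 37 of the 40 were lower, where 5.31% of all genes were. Mki67, the marker of cycling cells, was at 18.8, 11.2, 10.8 and 8.89 CPM in PAN+MP, against 19.9, 19.1, 38.4 and 21.9 CPM in Sham (-1.0 ± 0.27, adjusted p = 0.0289), and it averaged 104 ± 26.6 CPM in PAN. Nusap1, a spindle protein, was at 3.33, 1.68, 2.16 and 2.36 CPM in PAN+MP, against 3.61, 3.89, 8.05 and 4.83 CPM in Sham (-1.11 ± 0.29, adjusted p = 0.0233). For both genes PAN+MP library 1 came close to the lowest Sham library, and Sham library 3 was highest. With 1 library left out, the log2 fold change lay between -1.28 and -0.72 for Mki67. For Nusap1 it lay between -1.32 and -0.80. Without Sham library 3 the 2 genes had adjusted p-values of 0.0894 and 0.0725, and their calls were also lost without PAN+MP library 2, 3 or 4 and with the tubule score as a covariate (0.096 and 0.0705). The mitotic cyclin gene Ccnb2 and the spindle checkpoint gene Bub1b had -0.98 ± 0.31 and -0.86 ± 0.25 and kept their calls only without Sham library 2 (Bub1b) or PAN+MP library 1 (both). The lower count of the list was 0 without Sham library 3 or PAN+MP library 2, 3 or 4 and with the tubule score as a covariate. It was 3 without Sham library 1, 2 leaving out Sham library 4, 8 without Sham library 2 and 10 leaving out PAN+MP library 1. Rrm2 lost its call, which left 0 higher, without Sham library 1, 2 or 3 or PAN+MP library 1, 2 or 3.

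PAN+MP was also lower than PAN+Pio in 14 of the 40 cell cycle genes, against 0.428% of all genes, among them Nusap1 (-1.78 ± 0.28, adjusted p = 0.0187), Bub1b (-1.73 ± 0.25, adjusted p = 0.0106), Ccnb2 (-1.67 ± 0.31, adjusted p = 0.0268) and Mki67 (-1.59 ± 0.28, adjusted p = 0.0207). Mki67 averaged 12.4 ± 4.39 CPM in PAN+MP and 37.4 ± 8.53 CPM in PAN+Pio, with the PAN+MP level under and the PAN+Pio level over that of most Sham libraries. The count was 0 without PAN+MP library 2 or 3 and 1 leaving out PAN+MP library 4 or PAN+Pio library 1. It was 2 without PAN+Pio library 3 or 4. With all libraries DESeq2 called 22 cell cycle genes lower, among 286 genes called in either direction.

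The promoters of these 4 genes are shown because genes of mitosis share the cell cycle homology region, a short element bound by the DREAM and B-MYB complexes. They come from RefSeq on GRCr8 and run from 250 bases before to 50 after the start. Nusap1 lies at chr3:127057045-127057344 on the plus strand, Bub1b at chr3:126016817-126017116 on the plus strand, Ccnb2 at chr8:79981609-79981908 on the minus strand and Mki67 at chr1:199952544-199952843 on the minus strand. Capitals mark the core TTTGAA, searched on both strands.
Nusap1: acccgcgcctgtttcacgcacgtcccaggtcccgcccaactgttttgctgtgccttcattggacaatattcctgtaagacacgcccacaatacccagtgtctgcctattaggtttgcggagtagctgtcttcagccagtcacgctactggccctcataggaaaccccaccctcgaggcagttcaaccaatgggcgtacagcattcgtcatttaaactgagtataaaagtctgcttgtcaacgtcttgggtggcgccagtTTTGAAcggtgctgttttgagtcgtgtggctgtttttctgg
Bub1b: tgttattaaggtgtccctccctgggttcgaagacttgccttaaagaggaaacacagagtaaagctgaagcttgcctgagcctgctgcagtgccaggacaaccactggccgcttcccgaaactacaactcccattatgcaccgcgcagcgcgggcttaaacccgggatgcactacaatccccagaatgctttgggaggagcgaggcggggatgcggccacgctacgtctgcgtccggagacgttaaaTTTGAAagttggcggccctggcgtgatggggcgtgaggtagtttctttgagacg
Ccnb2: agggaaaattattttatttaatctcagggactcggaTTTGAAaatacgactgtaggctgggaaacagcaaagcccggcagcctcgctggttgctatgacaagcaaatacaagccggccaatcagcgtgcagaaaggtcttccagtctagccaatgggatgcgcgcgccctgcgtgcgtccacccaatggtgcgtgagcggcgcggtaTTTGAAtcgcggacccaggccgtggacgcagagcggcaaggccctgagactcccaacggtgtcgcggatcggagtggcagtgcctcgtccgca
Mki67: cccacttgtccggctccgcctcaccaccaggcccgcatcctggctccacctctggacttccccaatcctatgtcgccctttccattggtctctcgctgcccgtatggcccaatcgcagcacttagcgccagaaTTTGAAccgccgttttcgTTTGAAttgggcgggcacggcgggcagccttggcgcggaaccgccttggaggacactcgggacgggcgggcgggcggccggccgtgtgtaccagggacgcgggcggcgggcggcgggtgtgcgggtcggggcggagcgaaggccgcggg
The core stood in 15 of the 32 cell cycle promoters found and in 18.3% of all 33469 promoters, and none of the marked matches overlapped another motif searched. The match is a description of the letters only.

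Of 26 tested p53 targets 4 were higher and 2 were lower. Ccng1, an early p53 target, was at 164, 184, 182 and 172 CPM in PAN+MP, against 82.5, 97.7, 66.5 and 90.7 CPM in Sham (1.06 ± 0.16, adjusted p = 0.0015). PAN averaged 263 ± 34.4 CPM, so PAN+MP lay between the other 2 groups (-0.58 ± 0.16 against PAN, adjusted p = 0.0279). Phlda3, an inhibitor of AKT, followed the same order, with 0.56 ± 0.12 against Sham (adjusted p = 0.011) and -0.75 ± 0.12 against PAN (adjusted p = 0.000618). Bbc3, the death gene PUMA, was instead lower than in both, by -1.01 ± 0.22 against Sham (adjusted p = 0.0114) and -0.79 ± 0.22 against PAN (adjusted p = 0.0358). Higher members numbered 2 without Sham library 1 or 3 or PAN+MP library 4, and the lower count was 1 leaving out Sham library 1 or 3 or PAN+MP library 2, 3 or 4.

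Immediate early genes, which answer acute stimuli within minutes, were lower in 6 of 27 cases and higher in 0, with a median of -0.40. Egr1, a zinc finger factor of this class, was at 9.24, 12.0, 13.1 and 16 CPM in PAN+MP, against 28.8, 25.9, 18.2 and 19.8 CPM in Sham (-0.88 ± 0.19, adjusted p = 0.0118). In PAN it averaged 13.5 ± 1.04 CPM, close to PAN+MP. The list as a whole did not follow Egr1 there. In PAN+MP against PAN, 8 of the 27 were lower and 0 higher, where 5.31% of all genes were lower. In PAN against Sham, 4 were higher and 3 lower, against 10.4% and 8.52% of all genes. Fosl2, an AP-1 subunit, was at 17.5, 18.4, 20.3 and 23.0 CPM in PAN+MP, against 32.7, 28.3, 29.2 and 27.0 CPM in Sham (-0.57 ± 0.14, adjusted p = 0.0173), a call lost without Sham library 1 (0.0609) and with the tubule score as a covariate (0.0544). Against Sham, lower members numbered 1 without Sham library 1 and with the tubule score as a covariate. They numbered 3 leaving out PAN+MP library 1 and 2 without PAN+MP library 2.

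The immune lists had 0 to 2 called members each in PAN+MP against Sham. Over all genes 5.98% were called higher and 6.72% lower. Of 24 tested macrophage genes 1 was higher (Lyz2) and 0 were lower, of 23 lymphocyte genes 2 were lower (Cd3d and Cd247), of 29 interferon genes 1 was lower (Rsad2), and of 25 NF-kB targets 1 was higher (Birc3). Each of these 4 counts was 0 when either Sham library 1 or PAN+MP library 3 was left out, and further libraries moved each of them. Lyz2 was called only with all libraries or without Sham library 4 or PAN+MP library 2, Cd3d only with all libraries, Cd247 only with all or without Sham library 2, Rsad2 only with all or without Sham library 4 or PAN+MP library 1, and Birc3 only with all or without Sham library 3. Cd68, a lysosomal protein of macrophages, averaged 7.61 ± 2.25 CPM in PAN+MP and 8.33 ± 1.56 CPM in Sham (-0.13 ± 0.20, adjusted p = 0.688). None of 12 MHC class II genes was called by edgeR (1 lower without PAN+MP library 3), with 2 at an unadjusted p under 0.05 and 1 called lower by DESeq2. Their chaperone Cd74 was at 349, 162, 253 and 351 CPM in PAN+MP, against 302, 358, 328 and 389 CPM in Sham (-0.30 ± 0.19, adjusted p = 0.297). In PAN+MP against PAN, 8 of the 12 were lower and 0 higher, where 5.31% of all genes were lower and 3.31% higher. Also lower there were 10 of the 24 macrophage genes, 5 of the 25 NF-kB targets and 3 of the 23 lymphocyte genes. Each of these lists had 0 higher, while 2 of the 29 interferon genes were higher and 0 lower. Of 7 neutrophil genes edgeR called 0 against Sham (2 higher without PAN+MP library 2). In PAN+MP against Sham, 3 of them were at an unadjusted p under 0.05 and DESeq2 called 2 higher. Their mean log2 level was 0.561, 0.049, 0.945 and 2.42 in PAN+MP libraries 1 to 4, against 0.435 to 1.11 in Sham. Only PAN+MP library 4 lay above the Sham range.

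Complement is a plasma cascade whose regulators shield podocytes. Cd55, the decay-accelerating factor that protects cells from complement, was at 371, 627, 410 and 380 CPM in PAN+MP, against 219, 262, 151 and 195 CPM in Sham (1.11 ± 0.25, adjusted p = 0.0124), and it was not called against PAN (0.74 ± 0.25, adjusted p = 0.0804). Serping1, the inhibitor of C1, rose by 0.70 ± 0.16 (adjusted p = 0.0142), a call lost without Sham library 1 (adjusted p = 0.0536). These were the 2 higher of 26 tested complement genes, and Cd46 was the lower one, lost without each of Sham libraries 1, 3 and 4 and each PAN+MP library. In the complement list 11.5% was called, against 12.7% of all genes. In the coagulation list 1 of 24 was higher and 3 were lower (16.7% called). The lower ones included Anxa2, a plasminogen receptor, which fell by -0.44 ± 0.10 (adjusted p = 0.0156). The single higher member, F2, lost its call without Sham library 1, 2 or 3 or PAN+MP library 2, 3 or 4.

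Of 30 tested oxidative phosphorylation genes, 11 were higher and 0 lower, all 30 had a log2 fold change above 0, and the median was 0.37. Cox6a1, a subunit of cytochrome c oxidase, was at 109, 124, 115 and 122 CPM in PAN+MP, against 71.2, 87.8, 68.1 and 74.4 CPM in Sham (0.64 ± 0.11, adjusted p = 0.0046). Cox8a, another subunit, and the complex I subunit genes Ndufa2 and Ndufb8 rose by 0.75 ± 0.15, 0.60 ± 0.13 and 0.56 ± 0.09. None of these 4 was called against PAN, where their log2 fold changes lay between -0.18 and 0.04, and PAN+MP against PAN had 0 called members in this list in either direction. Such genes have processed pseudogenes, and the sources used here do not say how reads shared with them were counted. The number higher was 4 without Sham library 1 or 3 or PAN+MP library 2 or 4, 5 leaving out PAN+MP library 1, and 6 with the tubule score as a covariate.

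Tubule cells are rich in mitochondria, and proximal tubule genes ran the same way without reaching a call. None of 26 tested was called by edgeR, with 1 at an unadjusted p under 0.05 and 0 called by DESeq2, and their median log2 fold change was 0.68. The score of these genes was 7.82, 7.75, 7.26 and 8.16 in PAN+MP and 6.72, 7.502, 6.48 and 7.61 in Sham, on the log2 scale, so the groups overlapped. The part of tubule RNA in the higher oxidative phosphorylation genes was not tested beyond the covariate count. Of 20 distal nephron genes edgeR called 0, with 3 at an unadjusted p under 0.05 and 1 called higher by DESeq2, and their median was 0.41.

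Targets of NRF2, the sensor of oxidative stress, were higher in 6 of 23 cases and lower in 0, with a median of 0.35. Gpx2, a glutathione peroxidase, was at 4.57, 3.70, 3.52 and 4.66 CPM in PAN+MP, against 1.32, 1.86, 1.23 and 1.75 CPM in Sham (1.41 ± 0.17, adjusted p = 0.000418). Nqo1, a quinone reductase, was at 7.54, 7.46, 8.75 and 9.17 CPM in PAN+MP, against 3.04, 4.33, 5.40 and 5.22 CPM in Sham (0.87 ± 0.20, adjusted p = 0.013). The groups did not overlap for either gene, and neither was called against PAN (0.10 ± 0.16 and 0.20 ± 0.19). In that list, the higher count was 2 without Sham library 1, 3 leaving out Sham library 3 or PAN+MP library 2 or 4, and 3 with the tubule score as a covariate.

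The Gpx2 promoter is shown as the strongest member with a match to the antioxidant response element through which NRF2 acts. It lies at chr6:101229984-101230283 on the minus strand of GRCr8 in RefSeq, and capitals mark the match to TGACNNNGC, found here on the opposite strand.
Gpx2: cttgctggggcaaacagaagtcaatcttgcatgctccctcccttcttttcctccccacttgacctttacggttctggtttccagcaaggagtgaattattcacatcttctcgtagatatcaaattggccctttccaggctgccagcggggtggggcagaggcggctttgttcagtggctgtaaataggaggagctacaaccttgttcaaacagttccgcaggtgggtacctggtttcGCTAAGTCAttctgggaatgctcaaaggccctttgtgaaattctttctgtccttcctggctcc
The match begins 13 bases before the start and overlaps no other motif searched. The element stood in 7 of 20 NRF2 target promoters found and in 12.1% of all 33469 promoters. For comparison, the full palindromic glucocorticoid response element stood in 0 of 38 promoters of the receptor's targets and in 0.0149% of all promoters, and nothing follows from it about the receptor, which often binds far from the start.

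Of 18 kidney injury genes 4 were higher and 0 were lower. Cst3, which encodes the protease inhibitor cystatin C, was at 4833, 5170, 4333 and 4961 CPM in PAN+MP, against 1249, 1567, 979 and 1418 CPM in Sham (1.89 ± 0.16, adjusted p = 1.63e-05). Its groups lay far apart, and it averaged 4824 ± 356 CPM in PAN+MP and 3466 ± 584 CPM in PAN (SD, n = 4 each), a difference that was not called (0.48 ± 0.16, adjusted p = 0.0756). Igfbp7, a secreted binding protein of insulin-like growth factors, rose by 0.62 ± 0.14 (adjusted p = 0.0125), and Vim and Timp2 were the other 2 higher members. The count of higher members held between 4 and 5 over the libraries left out.

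Among fat and PPAR gamma genes 2 of 31 were higher (6.45% called, against 12.7% of all genes). Gpd1, the glycerol-3-phosphate dehydrogenase that links glycolysis to lipid synthesis, was at 170, 178, 124 and 176 CPM in PAN+MP, against 49.0, 91.0, 49.1 and 72.1 CPM in Sham (1.31 ± 0.22, adjusted p = 0.00302). The other, the lipid droplet gene Cidea, was under 0.6 CPM in every library of both groups and lost its call without each of the libraries except Sham library 3. Summed fat cell markers were at 0.373 to 0.559 CPM in PAN+MP and 0.112 to 0.354 CPM in Sham. Of 16 atrophy and catabolic genes, which glucocorticoids induce in muscle, 3 were higher (Gadd45a, Ctsl and Bnip3), and none of the 3 was called without Sham library 1 or PAN+MP library 4. Gadd45a also lost its call without Sham library 3 or 4 or PAN+MP library 3, Ctsl without PAN+MP library 1, and Bnip3 without Sham library 3 or PAN+MP library 1 or 2, while 5 were higher without Sham library 2.

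No call was made among 21 cholesterol synthesis genes, 19 ER stress genes and 13 erythroid genes by edgeR. At an unadjusted p under 0.05 these lists had 5, 4 and 0 members, and DESeq2 called 1, 0 and 0. Without Sham library 2, edgeR called 1 cholesterol synthesis gene, 2 ER stress genes and 1 distal nephron gene higher, and without Sham library 4 it called 1 ER stress gene lower.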

How the data were processed

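Total RNA of glomeruli was made into ribosomal RNA and globin depleted, strand-specific libraries and sequenced, per the labels' protocols. The submitters' processing notes name cutadapt, STAR, HTSeq 0.6.1p1, DESeq2 and the genome build Rnor_6.0. The strand setting of the counting is not given in the sources used here, so it is not known whether a gene and its antisense partner were counted apart.

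The authors deposited raw read counts per gene for 16 libraries, and these counts were used. The 16 deposited columns of normalized values per library and the authors' deposited group means of that signal were not used. The authors also deposited log2 fold changes and adjusted p-values of their own comparisons, which were used only to count shared calls. The count columns show a library's group but no replicate number, so libraries were numbered by column order within a group. The columns of untreated PAN carry the word high and 2 columns carry a tag, neither of which the sources used here explain. The labels do not say more of the replicates than 4 rats a group, and the p-values measure the spread between these libraries.

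Counts were fitted in R 4.3.3 with edgeR 4.0.16 (limma 3.58.1): filterByExpr with a minimum count of 10, TMM scaling, 1 term per group over all 16 libraries, glmQLFit and glmQLFTest, and Benjamini-Hochberg adjustment over 17061 genes. The SE of a log2 fold change was its size divided by the square root of F. Levels are CPM on TMM-adjusted library sizes. The biological coefficient of variation was 19.4%. Counts of 12 pairs of libraries of 1 group differed by at least 16.2 times the counting variance, so no library was a copy. The procedure was tested on simulated data.

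Genes were named by rule: the 12 highest and 12 lowest called genes with groups that did not overlap and a mean of at least 1 CPM, the 8 highest and 8 lowest of each set defined by the PAN comparisons, the 4 largest called members of each of 39 lists, and Fkbp5, Tsc22d3, Per1, Nphs1, Synpo, Wt1, Nr3c1 and Hsd11b1. Other list members were named after their values were seen, and some genes that the rule names are not reported here. The comparison, the rule and the lists were chosen with earlier results of these data known. Of 970 list symbols, 945 were in the table as spelt, 15 matched by a synonym and 10 were unmatched. Alternatives were RLE scaling, no low-count filter, a fit to the libraries compared alone, the proximal tubule score as a covariate, leaving out the 2 tagged libraries or each library in turn, and DESeq2 1.42.0. Matching lists without synonyms was chosen after seeing the data. Promoters came from RefSeq on GRCr8, a build other than that of the counts, and served only to show sequence.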

Additional observations from a re-analysis of the deposited data

Results flagged for a closer look

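Of 98 groups of 4 libraries checked, 6 held a library whose gap to the other 3 passed Dixon's critical value, which is set so that chance passes it in about 1 in 20 groups. In PAN+MP library 4, Lpar1 was at 49.7 CPM with the other 3 at 5.83 to 11.1 CPM, Fkbp5 was at 210 CPM with the others at 22.4 to 31.1 CPM, and Synpo was at 1120 CPM with the others at 1420 to 1440 CPM. In Sham, C17H10orf113 was at 65 CPM in library 1 with the others at 18.2 to 21 CPM, C1qtnf7 was at 52.7 CPM in library 4 with the others at 13.2 to 18.7 CPM, and Aplnr was at 271 CPM in library 3 with the others at 120 to 143 CPM.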

How the results depend on the processing

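Of 13 genes not called against Sham that were refitted under the alternatives, 5 changed sign. With 1 library left out, the log2 fold change of Fkbp5 ranged from -0.85 to 0.97 and that of Tsc22d3 from -0.047 to 0.49, both lowest without PAN+MP library 4, that of Per1 from -0.81 to 0.044, highest without Sham library 4, and that of Wt1 from -0.10 to 0.22, below 0 without Sham library 3 or 4. That of Lamb2 ranged from -0.077 to 0.0058, above 0 without PAN+MP library 1. With the tubule covariate Wt1 had -0.0094 and Lamb2 0.042. Of 121 named genes called in PAN+MP against Sham, DESeq2 called all 121, RLE scaling lost 2, no low-count filter 9, leaving out the 2 tagged libraries 16, a fit to the 8 libraries alone 22 of 120, and the tubule covariate 44, while 57 were lost at least once when 1 library was left out (248 of 968 values). The 2167 changed genes became 901 with the covariate (527 of 1020 higher, 374 of 1147 lower) and 726 to 2381 with 1 library left out (388 to 1035 higher, 338 to 1381 lower), and DESeq2 called 1753 lower. Lists with a called member numbered 32, and 21 without Sham library 1. PAN+MP against PAN gave 946 to 1387 with 1 library left out. PAN against Sham gave 2051 in a fit to its 8 libraries and 1978 to 4071 with 1 left out. PAN+MP against PAN+Pio gave 172 in a fit to its 8 libraries, 220 with the covariate, 15 without the tagged libraries, 286 with DESeq2 and 0 to 130 with 1 left out. The cause was not tested. No paired analysis was possible because the count columns carry no replicate numbers. With 4 libraries a group, a missed call does not show that a gene was level.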
